A study of Bos taurus with 9 samples.

Results

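Insulin and the insulin-like growth factors (IGFs) act through a small set of cell surface and secreted proteins, and the transcripts of 10 of these were followed in single bovine blastocysts: the receptors *IGF1R* and *INSR*, the receptor substrates *IRS1* and *IRS2*, and the IGF binding proteins *IGFBP2*, *IGFBP3*, *IGFBP4*, *IGFBP5*, *IGFBP6* and *IGFBP7*. The genes were taken by symbol, and all 10 were present among the 21512 genes of the deposited table. Of these, 9 had a median above 0.1 TPM across the libraries and entered the comparison of genotypes, whereas *IRS2* did not. TPM is the share of a gene among all transcripts of a library, corrected for transcript length and scaled to a fixed sum. Levels of different genes can thus be set side by side within a library, but a bias of a gene that all libraries share would remain. The study reports sequencing depth as a range over its samples and not for each library. The counting error of a single value is therefore unknown.

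Both receptors are tyrosine kinases that, once a ligand binds, phosphorylate IRS proteins, which recruit phosphatidylinositol 3-kinase (PI3K) and so activate AKT. IGF1R binds mainly IGF1 and IGF2, and INSR binds insulin and, in one splice form, IGF2. The IGFBPs are secreted proteins that hold IGFs outside the cell, where they may withhold the ligand from the receptor or carry it there, and proteases such as PAPPA release it again. IGFBP7 binds IGFs only weakly. Early cattle embryos are exposed to IGFs and IGFBPs of the oviduct and uterus, and in culture to those of serum.

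The libraries came from individual D8 blastocysts produced *in vitro*, 5 wild type (WT) and 4 *TEAD4* knockout (KO), 1 embryo per library and without pooling. KO embryos derived from oocytes injected with *Cas9* mRNA and a guide RNA against *TEAD4*, the gene of a DNA-binding partner of YAP, and carried only frame-disrupting alleles, which can differ from embryo to embryo. WT embryos carried no edited allele, and the study's methods assign that class to oocytes injected with *Cas9* alone. All embryos shared the sire, and were cultured in synthetic oviduct fluid with fetal calf serum. Libraries are named WT_1 to WT_5 and TE_1 to TE_4 (KO) as in the table. Each held inner cell mass and trophectoderm together, and in such whole embryos fewer cells of a type cannot be told apart from less RNA per cell.

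*TEAD4* transcripts were present in all libraries (18.0 to 54.3 TPM in WT, 12.5 to 42.8 TPM in KO; log2 fold change −0.51 ± 0.42, SE; limma adjusted p = 0.947), and small frame-disrupting alleles need not lower them. The number of genes above 0 TPM was 14776 to 15375 in KO, 14807 in WT_1 and 15933 to 16678 in WT_2 to WT_5. Every KO library was thus below WT_2 to WT_5, and the bearing of this on genes near 0 TPM was not tested. The markers of trophectoderm (7 of 7), epiblast (3 of 3) and hypoblast (4 of 4) were above 0 in every library. Of the markers of cells that could accompany an embryo, 5 of 10 for cumulus and granulosa cells, 2 of 5 for fibroblasts and 2 of 4 for blood cells were above 0 in every library, and *COL3A1*, *PTPRC* and *HBB* were listed at 0 throughout. The summed level of the fibroblast markers was 7.72 to 30.3 TPM in WT and 4.54 to 17.8 TPM in KO, with *COL1A2* the largest part in every library. That of the blood markers was 54.8 to 173 and 62.3 to 315 TPM. Nearly all of it was *HBA* (54.1 to 172 TPM in WT, 62.0 to 314 TPM in KO), and *CD14* did not exceed 1.16 TPM. WT_1 stood apart from the other WT libraries in its epiblast markers, with *NANOG* at 0.127 TPM and *SOX2* at 3.89 TPM.

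The binding proteins, not the receptors, made up most of the family's transcripts in D8 blastocysts. *IGFBP2* was the most abundant member, with a mean of 107.9 TPM over the 9 libraries, at percentile 89.6 of the mean levels of all genes tested. It was followed by *IGFBP3* (25.1 TPM, percentile 71.8), *IGFBP6* (18.3 TPM, percentile 66.9), *IGFBP4* (7.19 TPM), *IGFBP5* (6.21 TPM) and *IGFBP7* (2.06 TPM). The receptors and their substrates were at the low end, with means of 0.924 TPM for *IGF1R*, 0.754 TPM for *INSR*, 0.376 TPM for *IRS1* and 0.0512 TPM for *IRS2*, and *IGF1R* was at percentile 19.3.

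Neighbours in the order of mean log2(TPM + 1) were compared within the 9 libraries by an exact sign-flip permutation test (two-sided, 9 comparisons, Benjamini-Hochberg adjustment). The order is *IGFBP2*, *IGFBP3*, *IGFBP6*, *IGFBP5*, *IGFBP4*, *IGFBP7*, *IGF1R*, *INSR*, *IRS1*, *IRS2*. *IGFBP2* exceeded *IGFBP3* in 9 of 9 libraries, by 2.04 ± 1.04 on the log2 scale (SD, n = 9; exact p = 0.00391, adjusted p = 0.0176). *IGFBP6* exceeded *IGFBP5* in 8 of 9 libraries (exact p = 0.0195, adjusted p = 0.0439), *IGFBP7* exceeded *IGF1R* in 8 of 9 (exact p = 0.00781, adjusted p = 0.0234) and *IRS1* exceeded *IRS2* in 9 of 9 (exact p = 0.00391, adjusted p = 0.0176). The other five steps did not pass. *IGFBP3* was above *IGFBP6* in 7 of 9 libraries (exact adjusted p = 0.141), *IGFBP5* above *IGFBP4* in 3 of 9 (exact adjusted p = 0.930), *IGFBP4* above *IGFBP7* in 7 of 9 (exact adjusted p = 0.0879), *IGF1R* above *INSR* in 5 of 9 (exact adjusted p = 0.229) and *INSR* above *IRS1* in 6 of 9 (exact adjusted p = 0.0879).

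**Figure D1:**
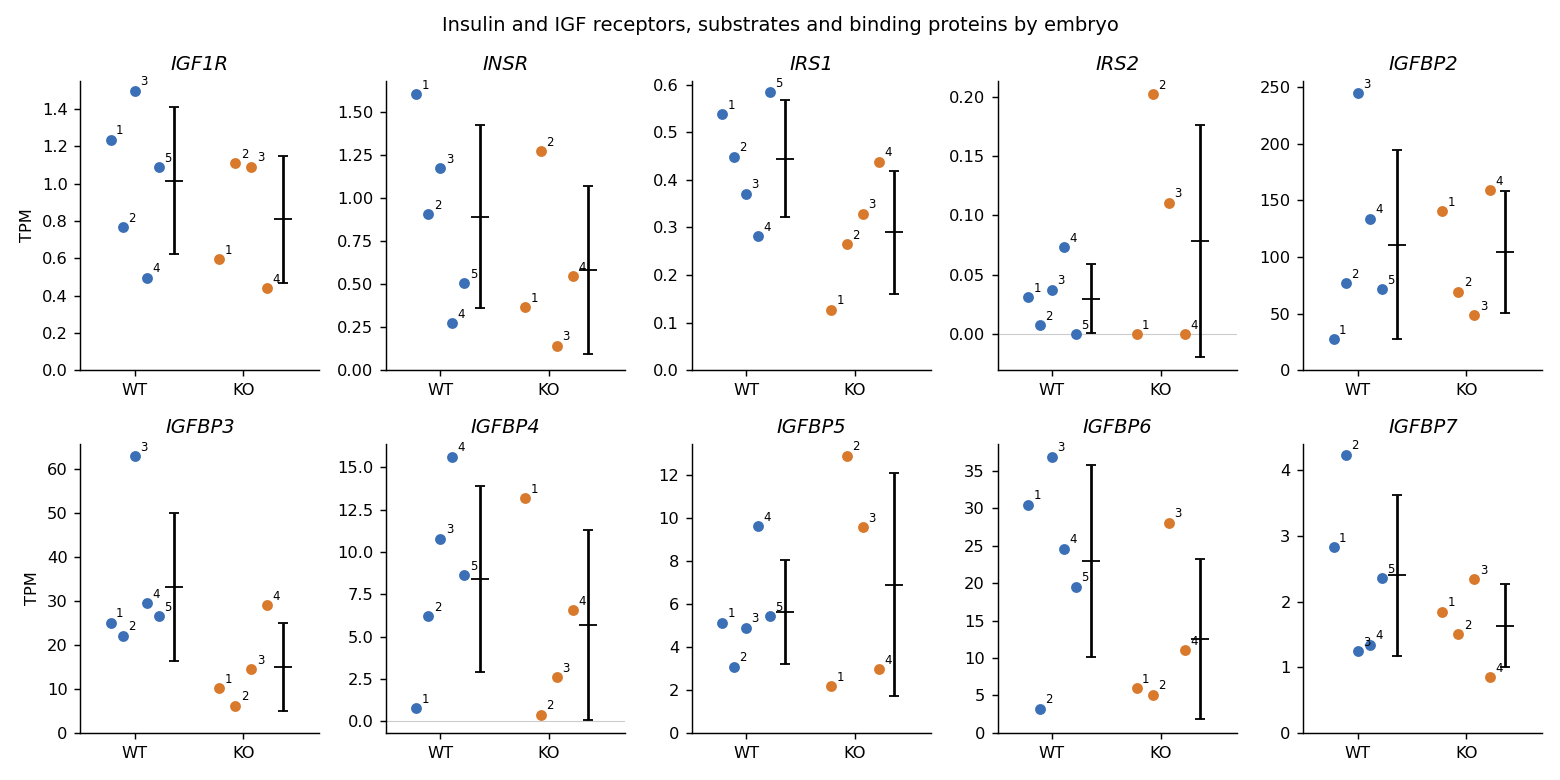
TPM of the 10 members in each library (points, numbered as in WT_1 to WT_5 and TE_1 to TE_4), with the mean and SD of each genotype in black; each panel has its own linear axis. *IGFBP3* in 3 of the 4 KO embryos lies below every WT embryo, and the values of both genotypes overlap in every panel.

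To ask whether ablation of *TEAD4* altered these transcripts, KO and WT embryos were compared with limma, a linear model fitted to log2(TPM + 1) of all 14599 genes tested, and log2 fold changes are KO minus WT. None of the 9 tested members was called changed (adjusted p under 0.05 and absolute log2 fold change above 1), where 3 of all genes were (0.0205%). At an unadjusted p under 0.05, 1 member, *IGFBP3*, was lower in KO and 0 were higher, beside 3.83% and 2.07% of all genes. In 0 members was every KO embryo below, or every KO embryo above, every WT embryo, beside 1.23% and 0.801% of all genes. The mean of log2(TPM + 1) was lower in KO for 7 members and higher for 2, with a median of −0.26, and lower for 8150 of all genes tested, with a median of −0.05.

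**Figure D2:**
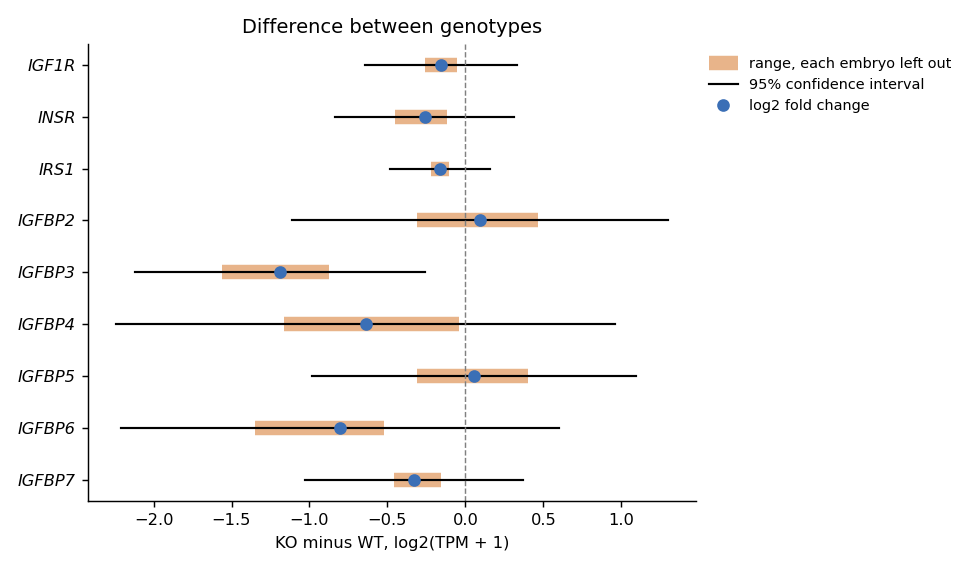
Log2 fold change (KO minus WT, on log2(TPM + 1)) of the 9 tested members, with its 95% confidence interval from limma (lines) and its range when each embryo is left out in turn (bars). The interval of *IGFBP3*, from −2.12 to −0.26, is the one that does not include 0; intervals are not adjusted for the number of genes.

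*IGFBP3*, the main IGF carrier of serum, had the largest difference of the tested members. Its level in WT_1 to WT_5 was 25.1, 22.1, 62.9, 29.6 and 26.5 TPM, and in TE_1 to TE_4 it was 10.2, 6.23, 14.5 and 29.0 TPM. TE_1, TE_2 and TE_3 were below every WT embryo, and TE_4 was within the WT range, where WT_3 stood highest. WT embryos had a mean of 33.2 ± 16.8 TPM (SD, n = 5) and KO embryos of 15.0 ± 9.93 TPM (SD, n = 4). The log2 fold change was −1.19 ± 0.43 (SE), with a limma p of 0.0163 before and 0.718 after adjustment. By an exact permutation test over all ways to draw 4 of the 9 embryos, which cannot give a two-sided p under 0.0159, p was 0.0635. Without TE_4 the log2 fold change was −1.56 (adjusted p = 0.588 from limma), and the groups then no longer overlapped, which, with KO lower, also held for 334 of the 14680 genes tested without TE_4. Without TE_2 it was −0.87 with an unadjusted limma p of 0.0583. Over all settings tried, its limma adjusted p was between 0.588 and 0.999.

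Markers of other cells are given here beside *IGFBP3*, both those that differed between the genotypes and those that did not. None of those tested passed the adjustment over all genes. The summed level of the 10 cumulus and granulosa markers was 77.9 to 267 TPM in WT and 9.40 to 130 TPM in KO. The largest part in every WT embryo and in TE_1, TE_3 and TE_4 was *CYP11A1*, the enzyme that cleaves the cholesterol side chain, and in TE_2 it was *FSHR*, the receptor of follicle-stimulating hormone. The level of *CYP11A1* in WT_1 to WT_5 was 247, 90.9, 52.7, 116 and 139 TPM, and in TE_1 to TE_4 it was 26.7, 7.22, 96.7 and 4.57 TPM (log2 fold change −2.62 ± 0.73, SE; limma adjusted p = 0.566). *FSHR* was at 12.1 to 26.8 TPM in WT and at 21.8 to 23.3 TPM in TE_1 to TE_3, with 1.36 TPM in TE_4 (log2 fold change −0.44 ± 0.62, SE). *STAR*, which brings cholesterol into mitochondria, was at 4.49 to 11.7 TPM in WT and 1.62 to 6.60 TPM in KO, and *CYP19A1*, the aromatase, had means of 1.05 and 1.72 TPM. The cumulus matrix genes were lower: *HAS2* did not exceed 0.520 TPM in any library, *PTX3* had a listed value of 0 in 4 WT and 2 KO embryos, and *TNFAIP6* had means of 0.917 and 0.0725 TPM. Of the 8 tested genes of this list, 5 had a lower and 3 a higher mean in KO. Among the fibroblast markers, *LUM* had a mean of 1.38 TPM for WT and 0.174 TPM for KO, with overlapping groups (log2 fold change −0.89 ± 0.35, SE; limma unadjusted p = 0.0247, adjusted p = 0.765). Of the 4 tested fibroblast markers, 2 were lower and 2 higher in KO. All 4 hypoblast markers had a lower mean log2 level in KO, with a median log2 fold change of −0.57. *GATA4* had a mean of 1.46 TPM in WT against 0.640 TPM in KO without overlap (log2 fold change −0.59 ± 0.20, SE; limma adjusted p = 0.684), and the log2 fold changes of *SOX17*, *PDGFRA* and *GATA6*, whose groups overlapped, were −1.11, −0.55 and −0.47. Their summed level, mostly *GATA6*, was 81.6 to 145 TPM in WT and 43.6 to 151 TPM in KO. Whether cells of these types added to the level of *IGFBP3* was not tested. Of these lists, only the hypoblast markers were compared with *IGFBP3* across embryos, as given below.

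*IGFBP6*, which prefers IGF2 over IGF1, was at 30.4, 3.23, 36.8, 24.6 and 19.5 TPM in the WT embryos and at 5.93, 5.11, 28.1 and 11.0 TPM in the KO embryos. TE_3 was within the upper part of the WT range, and WT_2 was below every other embryo. The log2 fold change was −0.80 (standard error 0.64, 95% confidence interval −2.21 to 0.60, adjusted p = 0.943 from limma; exact permutation test, two-sided, p = 0.317). Single embryos moved it: it was −1.35 without WT_2 (unadjusted p = 0.0166, adjusted p = 0.931 from limma), −1.27 without TE_3 (unadjusted p = 0.0721 from limma) and −0.52 without TE_2.

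*IGFBP2*, the binding protein with the highest level, had nearly equal means in both genotypes, 110.8 ± 83.6 TPM for WT (SD, n = 5) against 104.3 ± 53.7 TPM for KO (SD, n = 4). It was at 27.6, 76.8, 244, 134 and 71.5 TPM in WT and at 140, 69.4, 48.3 and 159 TPM in KO. WT_1 was lowest and WT_3 highest of all embryos, and every KO embryo was between them. The log2 fold change was 0.09 (standard error 0.55, 95% confidence interval −1.11 to 1.30, adjusted p = 0.994 from limma; exact permutation test, two-sided, p = 0.889), and it ranged from −0.31 without WT_1 to 0.46 without WT_3. The interval leaves room for a change of more than 2-fold in either direction.

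*IGFBP5* is the neighbour of *IGFBP2* among the protein-coding genes of the RefSeq annotation of the bovine assembly, as *IGFBP1* is of *IGFBP3*. *IGFBP5* was at 5.13, 3.09, 4.91, 9.63 and 5.44 TPM in WT and at 2.18, 12.9, 9.59 and 2.96 TPM in KO. TE_1 and TE_4 were below every WT embryo and TE_2 was above every WT embryo, so that the KO embryos spanned the WT range on both sides. The log2 fold change was 0.05 (standard error 0.48, 95% confidence interval −0.99 to 1.09), and it ranged from −0.31 without TE_2 to 0.40 without TE_1. Across the 9 embryos, Pearson's r of *IGFBP2* and *IGFBP5* was −0.317 (exact permutation p = 0.404, adjusted p = 0.735 over 36 pairs of members) and Spearman's rho −0.550 (exact permutation p = 0.133, adjusted p = 0.664). Without TE_1 and TE_2, r was −0.195. *IGFBP1* itself had a listed value of 0 in 4 WT and 3 KO embryos and reached 0.234 TPM in TE_3.

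*IGFBP4*, the classical substrate of PAPPA, varied most of the members between embryos, 40.2-fold from the lowest to the highest among those above 0 in every library. It was at 0.757, 6.20, 10.8, 15.6 and 8.63 TPM in WT and at 13.2, 0.389, 2.61 and 6.57 TPM in KO. The low embryos were WT_1, TE_2 and TE_3, of both genotypes. The log2 fold change was −0.64 (standard error 0.73, 95% confidence interval −2.24 to 0.96), and ranged from −1.16 without WT_1 to −0.04 without TE_2. *IGFBP7*, which binds IGFs weakly, was at 2.83, 4.23, 1.24, 1.35 and 2.35 TPM in WT and at 1.85, 1.50, 2.34 and 0.846 TPM in KO. TE_4 was below every WT embryo, and the other three KO embryos were within the WT range (log2 fold change −0.33, standard error 0.32).

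**Figure D3:**
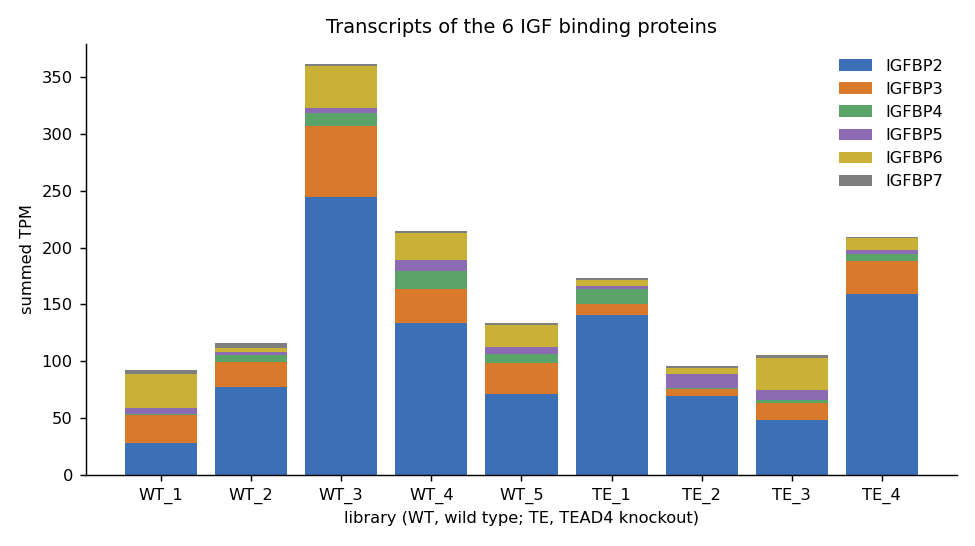
Summed TPM of the 6 binding protein genes in each library, divided by gene. *IGFBP2* forms the largest part in every library but WT_1, where *IGFBP6* is above it, and the *IGFBP3* part is 13.8% to 27.3% of the sum in WT and 5.88% to 13.8% in KO.

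Together the binding protein genes summed to 183 ± 109.5 TPM in the 5 WT embryos and to 146 ± 54.7 TPM in the 4 KO embryos (mean ± SD). *IGFBP2* contributed 56.0 ± 15.5% of this sum in WT and 68.8 ± 15.7% in KO. *IGFBP3* contributed 27.3, 19.1, 17.4, 13.8 and 19.8% in WT_1 to WT_5 and 5.88, 6.52, 13.8 and 13.8% in TE_1 to TE_4. WT_4, TE_3 and TE_4 were thus at nearly the same share of *IGFBP3*. *IGFBP6* contributed from 2.79% (WT_2) to 33.1% (WT_1), which was the widest range of shares after that of *IGFBP2*.

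*IGF1R* was at 1.23, 0.768, 1.50, 0.496 and 1.09 TPM in the WT embryos and at 0.595, 1.11, 1.09 and 0.438 TPM in the KO embryos. TE_4 and WT_4 were lowest, and the groups overlapped (log2 fold change −0.15 ± 0.22, SE, 95% confidence interval −0.64 to 0.33; limma adjusted p = 0.982). *INSR* was at 1.60, 0.907, 1.17, 0.271 and 0.506 TPM in WT and at 0.367, 1.27, 0.143 and 0.545 TPM in KO. TE_3 was below every WT embryo, TE_2 was exceeded by WT_1 alone, and the log2 fold change was −0.26 (standard error 0.26, 95% confidence interval −0.83 to 0.31, adjusted p = 0.970 from limma). At such levels the pseudocount of 1 TPM compresses differences, and with 0.1 TPM the log2 fold changes were −0.30 for *IGF1R* and −0.62 for *INSR*.

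The substrate *IRS1* was at 0.538, 0.449, 0.371, 0.281 and 0.585 TPM in WT and at 0.127, 0.265, 0.329 and 0.438 TPM in KO. TE_1 and TE_2 were below every WT embryo (log2 fold change −0.17 ± 0.15, SE; limma adjusted p = 0.956; exact permutation test, two-sided, p = 0.111). With a pseudocount of 0.1 TPM, the log2 fold change of *IRS1* was −0.52. *IRS2*, the other widely expressed substrate, had a listed value of 0 in 1 WT and 2 KO embryos and did not exceed 0.0733 TPM in WT or 0.202 TPM in KO. It did not reach the threshold for testing.

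The levels of *IGFBP2* and *IGFBP4* were compared with those of lineage markers. Both were higher in embryos with a higher mean log2 level of the epiblast markers, in a relation that did not pass the adjustment for the number examined. Such relations were chosen after the values were seen, and covered 27 combinations of the 9 tested members with the mean log2(TPM + 1) of epiblast, trophectoderm or hypoblast markers. For *IGFBP4* and the epiblast markers (*SOX2*, *NANOG* and *POU5F1*), Pearson's r across the 9 embryos was 0.853 (exact permutation p = 0.00425, adjusted p = 0.0573) and Spearman's rho 0.900 (exact permutation p = 0.00203, adjusted p = 0.0548). Without WT_1 and TE_3, the embryos farthest from the median marker level, r was 0.842. For *IGFBP2*, r was 0.852 (exact permutation p = 0.00328, adjusted p = 0.0573) and rho 0.750 (exact permutation p = 0.0255, adjusted p = 0.172), and r fell to 0.575 without those embryos. None of the 27 relations passed the adjustment. After subtraction of each genotype's mean, r was 0.847 for *IGFBP4* and 0.880 for *IGFBP2*, and the single genotypes are too small for an r of their own. The epiblast markers did not vary as one: their log2 fold changes were −1.43 for *NANOG* and −0.68 for *SOX2*, but 0.57 for *POU5F1*. TE_2 was highest in *POU5F1* (2142 TPM) and lowest in *IGFBP4* (0.389 TPM). By the paper's account, POU5F1 and CDX2 do not exclude each other between inner cell mass and trophectoderm in cattle as they do in mice. The mean of these markers is thus not a measure of the epiblast alone. Relations to single markers were not tested.

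**Figure D4:**
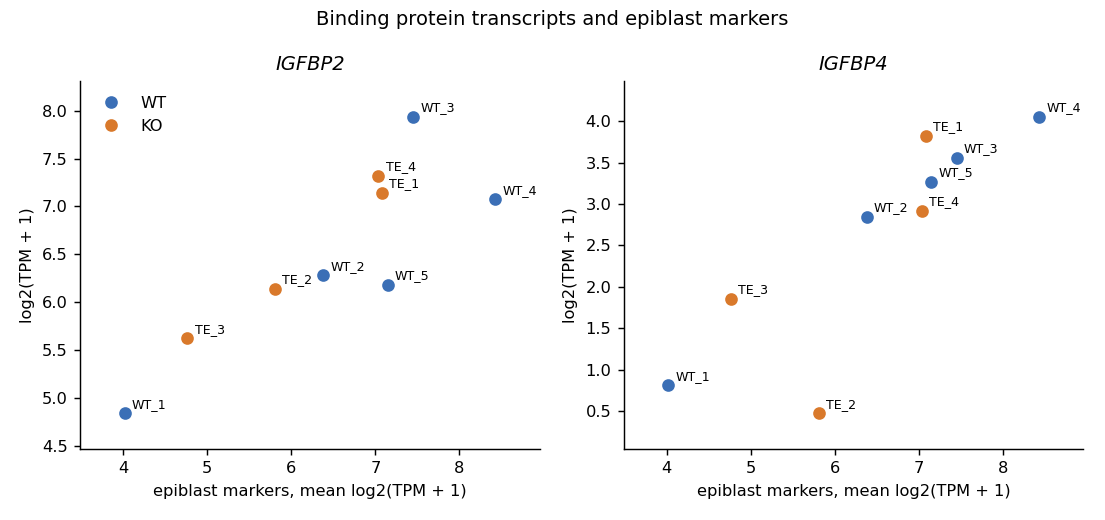
Log2(TPM + 1) of *IGFBP2* and *IGFBP4* in each embryo against the mean log2(TPM + 1) of *SOX2*, *NANOG* and *POU5F1* (WT blue, KO orange). WT_1 and TE_3, lowest in this marker mean, are the lowest in *IGFBP2* and among the 3 lowest in *IGFBP4*.

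The same members were lower where trophectoderm markers were higher. Pearson's r with these markers was −0.762 for *IGFBP2* (exact permutation p = 0.0175, adjusted p = 0.150; rho −0.800, exact permutation p = 0.0138, adjusted p = 0.124; r −0.861 without WT_4 and TE_4). It was −0.711 for *IGFBP4* (exact permutation p = 0.0344, adjusted p = 0.185; rho −0.800, exact permutation p = 0.0138, adjusted p = 0.124; r −0.809 without WT_4 and TE_4). *IGF1R* had a positive r of 0.757 (exact permutation p = 0.0223, adjusted p = 0.150; rho 0.717, exact permutation p = 0.0369, adjusted p = 0.199), which was 0.356 without WT_4 and TE_4 and so rested on these embryos. For *IGFBP3*, r was 0.357 with the epiblast markers (exact permutation p = 0.347, adjusted p = 0.624; rho 0.633, exact permutation p = 0.0760, adjusted p = 0.331; r 0.629 without WT_1 and TE_3) and 0.464 with the hypoblast markers (exact permutation p = 0.209, adjusted p = 0.512; rho 0.417, exact permutation p = 0.270, adjusted p = 0.607; r 0.168 without WT_3 and WT_5). All these points share the scaling of TPM to a fixed library sum. Among the 36 pairs of members, *IGFBP2* and *IGFBP4* had the highest r, 0.747 (exact permutation p = 0.0209, adjusted p = 0.735; rho 0.717, exact permutation p = 0.0369, adjusted p = 0.664; r 0.691 without WT_1 and TE_2).

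The ligands were at or close to 0. *INS* was listed at 0 in all 9 libraries, and *IGF1* in all but TE_4, where it was at 0.0483 TPM. *IGF2*, the fetal growth factor, was at 0.397, 0.141, 0.0164, 0.0725 and 0.331 TPM in WT and at 0.0793, 0.200, 0.365 and 0 TPM in KO, with overlapping groups. *IGF2R*, the receptor that clears IGF2, had a mean of 3.17 ± 1.22 TPM (SD, n = 5) for WT and 3.18 ± 1.06 TPM (SD, n = 4) for KO (log2 fold change 0.02 ± 0.33, SE, but −0.17 with libraries weighted by quality), which is above the means of both signalling receptors. The IGFBP proteases *PAPPA*, *PAPPA2* and *HTRA1* did not reach the threshold for testing.

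Of 56 further pathway genes, 45 were tested and 0 were called changed, beside the background of 0.0205%. The study's count model listed more genes as changed, *STC2* among them, so 0 calls with limma on TPM are not evidence of no change. Their mean was lower in KO for 27 and higher for 18, with a median log2 fold change of −0.08. At an unadjusted p under 0.05, 3 were lower (3.83% of all genes) and 0 higher (2.07%), and the same 3, *STC2*, *GSK3A* and *FOXO3*, had every KO embryo below every WT embryo (1.23% of all genes), with 0 above (0.801%). By list, these were 1 of 2 protease genes and inhibitors, 1 of 13 PI3K and AKT genes and 1 of 3 FOXO factors. The study had already listed *STC2* as changed in these same embryos, so its place in these counts is not independent evidence. Among the 3 ligands and carriers, 12 adaptors, 9 TSC and mTOR genes and 3 *IGF2* mRNA-binding proteins tested, 0 passed an unadjusted p of 0.05.

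*STC2*, a secreted inhibitor of PAPPA, was at 0.434, 1.90, 1.77, 0.878 and 1.92 TPM in WT and at 0.0961, 0.224, 0 and 0 TPM in KO. No KO embryo reached the lowest WT value, and TE_3 and TE_4 were listed at 0 (log2 fold change −1.09 ± 0.24, SE; limma p = 0.000655 before and 0.330 after adjustment; exact permutation test, two-sided, p = 0.0159). With a pseudocount of 0.1 TPM, the log2 fold change of *STC2* was −3.05 (limma adjusted p = 0.149). *STC2* was included because the study lists it among its changed genes, so that its direction is not independent evidence. *STC1*, its paralogue, had a mean of 1.19 TPM for WT and 1.66 TPM for KO (log2 fold change 0.11 ± 0.44, SE).

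*GSK3A*, a kinase that AKT phosphorylates and inhibits, was at 17.9, 21.5, 23.8, 23.5 and 18.5 TPM in WT and at 8.74, 14.5, 11.9 and 13.8 TPM in KO. The groups did not overlap, and within each the values lay close together (log2 fold change −0.75 ± 0.26, SE; limma adjusted p = 0.678; exact permutation test, two-sided, p = 0.0159). *GSK3B*, its paralogue, averaged 13.8 and 10.9 TPM (log2 fold change −0.38, unadjusted p = 0.276 from limma). *FOXO3*, a transcription factor that AKT keeps out of the nucleus, was at 2.26, 1.96, 4.52, 3.79 and 2.58 TPM in WT and at 0.965, 1.63, 1.07 and 1.50 TPM in KO. Its groups were also apart (log2 fold change −0.78 ± 0.28, SE; limma adjusted p = 0.714; exact permutation test, two-sided, p = 0.0159). *FOXO1* and *FOXO4* averaged 0.314 and 0.937 TPM in WT and 0.213 and 0.882 TPM in KO.

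Without TE_2, 8 pathway genes had an unadjusted p under 0.05 and 7 had groups that did not overlap, counted over both directions. The numbers over all genes rose as well, from 861 to 1235 at that p. Genes without overlap rose from 179 to 604 with KO below and from 117 to 226 with KO above. Without TE_1, 4 pathway genes had an unadjusted p under 0.05 and 5 did not overlap, beside 980 of all genes at that p and 271 below and 361 above without overlap. The adaptors and kinases named here were well above the receptors in level. *GRB2*, which links receptors to RAS, had a mean of 125 TPM for WT and 137 TPM for KO, *AKT1* 99.6 and 84.9 TPM, and *RHEB*, the activator of mTOR complex 1, 485 and 453.7 TPM. Their log2 fold changes were 0.11 ± 0.22, −0.26 ± 0.26 and −0.08 ± 0.19 (SE).

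**Figure D5:**
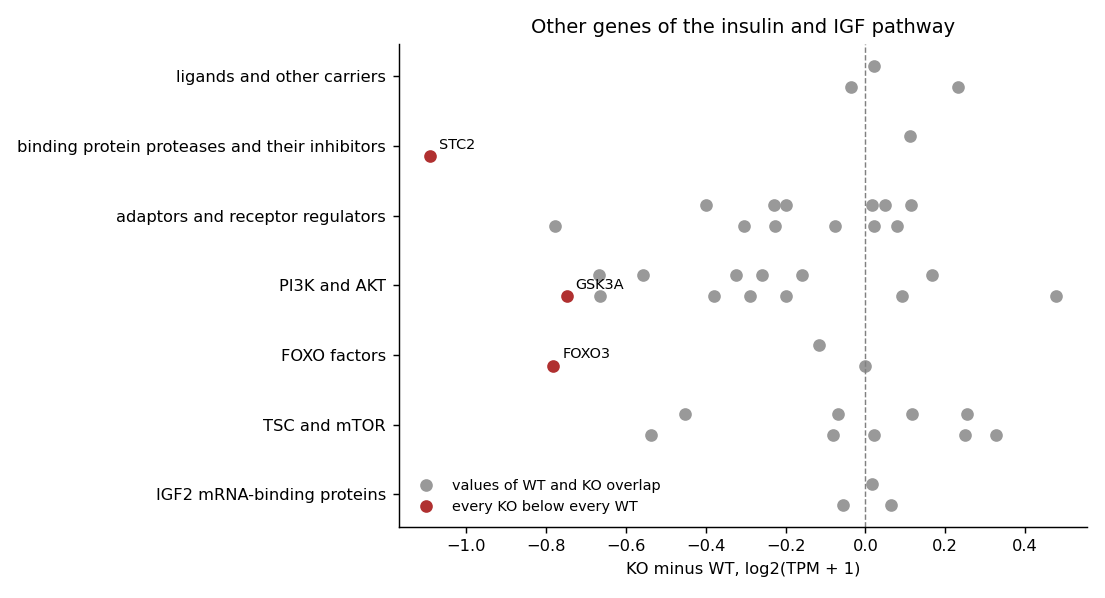
Log2 fold change (KO minus WT, on log2(TPM + 1)) of the 45 tested pathway genes by list, each point 1 gene; vertical offsets within a list only separate points. *STC2* (−1.09), *FOXO3* (−0.78) and *GSK3A* (−0.75), in red, are the genes in which no KO embryo reached the lowest WT value.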

How the data were processed

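RNA-seq of 9 individual D8 bovine blastocysts (5 WT, 4 *TEAD4* KO) was analysed from 1 table of gene-level TPM deposited by the authors, who pseudoaligned reads after quality control; FastQC, fastp and kallisto are named in the submitters' processing notes without versions. The annotation and genome build are not given in the sources used here, so no coordinates are printed. The deposited labels and the methods describe different RNA extraction, library kits and sequencers. All 9 value columns were used, and columns were assigned to a genotype by their names, but not to single deposited samples.

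Each library is scaled to a fixed TPM sum, which keeps no read depth; the count model of the study's methods could therefore not be run. Genes with a median above 0.1 TPM were tested on log2(TPM + 1) with limma 3.58.1 in R 4.3.3 (lmFit, eBayes with trend), with Benjamini-Hochberg adjustment over all genes tested; the fit was tested on simulated data. The exact tests of KO against WT doubled the smaller tail. The sign-flip and correlation tests counted absolute values at least as large as the one observed. Python 3.11.15 with scipy 1.17.1 served for the exact tests. All 10 members matched 1 RefSeq symbol, used for neighbours only. Alternatives were other pseudocounts, filters, scalings and limma options, and leaving out each embryo. The members and gene lists were chosen with earlier results of these data known. Named genes were all members, *TEAD4*, *STC2*, the main ligands, *IGF2R*, *IGFBP1* and pathway genes with an unadjusted p under 0.05 or no overlap; others, such as *GRB2*, *AKT1*, *RHEB*, *STC1*, *GSK3B* and marker genes, were named after their values were seen. P-values set a difference or a correlation against the spread between embryos.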

Additional observations from a re-analysis of the deposited data

Results flagged for a closer look

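In 19 genes, members and named pathway genes, the extreme embryo of each genotype was compared with the rest of its group on log2(TPM + 1) by Dixon's criterion, which flags about 1 in 20 groups by chance; 5 of 35 groups with any value above 0 met it. *IGFBP3* in WT_3 was at 62.9 TPM, far above the other WT embryos. *IGFBP6* in WT_2 was at 3.23 TPM, far below the other WT embryos. The others are single libraries above 0 in groups otherwise listed at 0: *IGF1* in TE_4 at 0.0483 TPM, *IGFBP1* in WT_3 at 0.0158 TPM and *IGFBP1* in TE_3 at 0.234 TPM.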

How the results depend on the processing

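No alternative called a member or a pathway gene changed, and this includes *STC2*, which the study lists as changed. Directions and calls of the 15 genes followed were the same in 236 comparisons with an alternative and reversed in 15. Quantile normalization reversed *IGF2* (0.010). Pathway genes with an unadjusted p under 0.05 then rose from 3 to 5, and all genes at that p from 861 to 1004. Array weights reversed *IGF2R* (−0.17). When each embryo was left out, the log2 fold change ranged from −0.31 to 0.46 for *IGFBP2*, from −0.31 to 0.40 for *IGFBP5*, from −0.12 to 0.032 for *IGF2* and from −0.16 to 0.19 for *IGF2R*. Members with an unadjusted p under 0.05 numbered 0 (without TE_2) to 2 (without WT_2), and members without overlap 0 to 1 (*IGFBP3* without TE_4). Of all genes, 1235 of 14661 had that p without TE_2 and 694 of 14692 without WT_2. Without TE_4, 334 of 14680 genes had KO below and 267 had KO above without overlap. Over single embryos left out, pathway genes with an unadjusted p under 0.05 numbered 3 to 8, and those without overlap 3 to 7. Both were highest without TE_2, where all genes also had the most at that p (1235, against 861). With a median above 1 TPM both numbered 2, beside 646 of 11219 genes at that p. In that setting, 119 genes had KO below and 95 had KO above without overlap. The causes were not tested. The median log2 fold change of the members was between −0.52 (pseudocount of 0.1 TPM) and −0.17 (quantile normalization). *INSR*, *IRS1*, *IGF2* and *STC2* were not tested with a median above 1 TPM. No paired analysis was possible because the deposited titles number the embryos without repeats. Low values such as those of the receptors have an unknown counting error.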
